A study of Bos taurus with 79 samples.

Results

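The endometrium of pregnant heifers with high progesterone was compared between day 7 and day 5 of pregnancy. The comparison used 10 of the 79 samples of the series, 5 from day 7 and 5 from day 5, chosen by their labels alone, and took in all probe sets with a gene symbol. Each sample was 1 Affymetrix bovine array, labelled as a biological replicate, and the array numbers given here are those replicate numbers. The heifers of both days were cross-bred beef animals whose estrus had been synchronized, which were then inseminated and found pregnant. All 10 carried an intravaginal device that released progesterone, placed on day 3 and left until slaughter, so the heifers killed on day 7 had carried it for longer. The RNA came from whole strips of endometrium that hold epithelium, stroma, vessels and immune cells, so that fewer cells of a type and less RNA per cell cannot be told apart in any value below. Other heifers served for comparison: pregnant heifers with normal progesterone, which were inseminated without a device (5 arrays on each day), cyclic heifers with high progesterone, which had the device without insemination (4 arrays on day 7 and 5 on day 5), and cyclic heifers with normal progesterone, which had neither (5 arrays on each day).

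The first week after estrus is the time in which estrogen of the follicle gives way to progesterone of the new corpus luteum. Estrogen drives the division of endometrial cells and the expression of its own receptor and of the progesterone and oxytocin receptors. Progesterone acts through its receptor to end that state and to bring on the secretion of histotroph, the mixture of nutrients, enzymes and growth factors on which the early embryo lives. In cattle the embryo passes from the oviduct into the uterus in these days, and progesterone given early is known to speed the growth of the later conceptus.

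Values are the authors' log2 expression values, so a difference of 1 is a doubling. The 10 arrays had medians between 4.97 and 5.12, and no pair of them correlated below 0.971 over the named genes. Over all arrays of the series 32.2% of probe sets had a mean under 3, close to the lowest values of the platform, and a difference that ends there is a lower limit. The labelled tissue was checked by its markers: the epithelial gene EPCAM averaged 12.70 ± 0.15 on day 7 and 12.45 ± 0.32 on day 5, and the stromal gene VIM 12.60 ± 0.13 on day 7 and 13.16 ± 0.28 on day 5 (SD, n = 5 each). Both markers, chosen after their values were seen, did not pass the test (limma, adjusted p = 0.331 and 0.0883). Of the 12 trophoblast and 8 blood genes measured 9 and 7 lay under 3 on both days, and 0 members of either list changed. Haemoglobin beta, HBB, averaged 2.66 on day 7 and 2.68 on day 5, and the trophoblast interferon IFNT2 1.71 on day 7 and 1.74 on day 5, both chosen after their values were seen.

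Single arrays of day 7 stood apart in a few cell types and responses. The mean of the 11 smooth muscle genes was 10.20 on array 5 of day 7, against 6.61 to 6.99 on the other 4 arrays of that day and 7.17 to 7.40 on day 5. Interferon-stimulated genes averaged 8.81 on array 2 and 7.62 on array 5 of day 7, against 6.27 to 6.35 on the remaining 3 and 6.16 to 6.58 on day 5. B and plasma cell genes averaged 4.06 on array 1 of day 7 and between 2.96 and 3.19 on the other 9 arrays. For lists with several changed genes the counts without arrays 2 and 5 are given below where they move by over 1.5 times.

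Far more genes were lower on day 7 than were higher. Between the 2 days 1169 of 24016 probe sets, 4.87%, passed limma with a Benjamini-Hochberg adjusted p under 0.05. Counting each gene once by its brightest probe set, 160 of 9155 named genes, 1.75%, were higher on day 7 and 550, 6.01%, were lower. Differences of at least 2-fold were found in 38 of the higher and 137 of the lower genes, and the median difference was 0.71 among the higher and -0.67 among the lower genes. The median over all named genes was -0.032. With no test, 168 genes, 1.84%, had all 5 arrays of day 7 above all 5 of day 5, and 660 genes, 7.21%, had all of them below. Among the genes that passed, 84 higher and 371 lower ones were separated in this way. Without array 3 of day 7 the number of changed genes was 352 in place of 710, and without arrays 2 and 5 it was 419. Of 197 changed genes with several probe sets, the other 264 probe sets had the same sign in 226 cases. Only 45 of the 264 also passed the test with that sign.

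**Figure D1:**
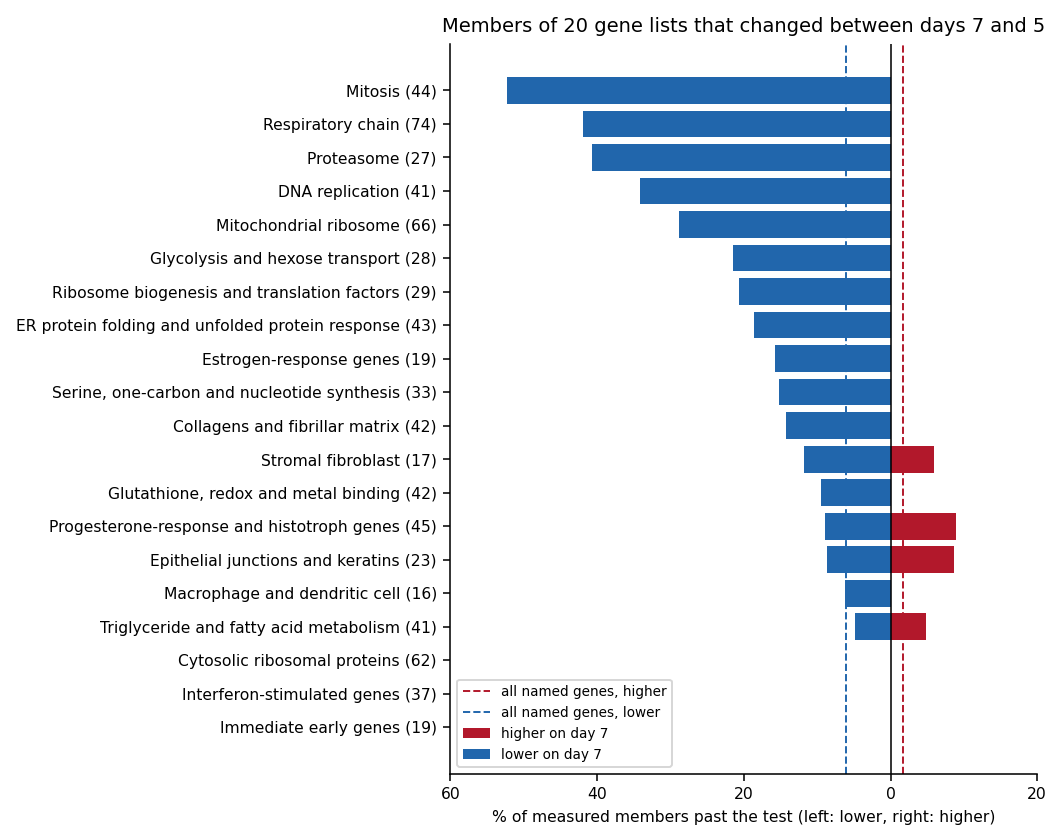
Share of the measured members of 20 gene lists (number in brackets) that were lower (blue, to the left) or higher (red, to the right) on day 7 than on day 5, in % of measured members, with dashed lines at the shares over all named genes, 6.01% lower and 1.75% higher. Mitosis genes reach 52.3% lower, and the respiratory chain, the proteasome, DNA replication and the mitochondrial ribosome follow between 28.8% and 41.9%.

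Genes of cell division were lower on day 7. Of 44 measured mitosis genes 23 fell and 0 rose, which is 52.3% of the list beside 6.01% of all named genes, and their median difference was -1.43. Of 41 DNA replication genes 14 fell, 34.1%, with a median of -0.47. RRM2, a subunit of the reductase that makes deoxynucleotides, read 3.98, 4.27, 3.37, 6.64 and 3.59 on the 5 arrays of day 7, against 6.88, 6.27, 9.49, 8.20 and 7.32 on day 5. Array 4 of day 7 was the highest of its day and lay above the lowest array of day 5, so the groups overlapped at that array only. The difference was -3.26 ± 0.60 (SE), 9.60-fold lower on day 7 (limma, adjusted p = 0.000414).

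NCAPG, a subunit of the condensin that packs chromosomes, and MELK, a kinase of dividing cells, showed no overlap between the days. NCAPG read 3.73, 3.19, 2.91, 4.86 and 3.31 on day 7, against 6.35, 5.24, 7.58, 6.72 and 6.64 on day 5, a difference of -2.90 ± 0.42 (limma, adjusted p = 1.05e-05). MELK averaged 3.18 ± 0.79 on day 7 and 6.23 ± 0.90 on day 5, 8.28-fold lower on day 7 (limma, adjusted p = 0.000189). PCNA, the sliding clamp of the replication fork, was chosen after its values were seen. It read 9.20, 9.37, 9.03, 9.69 and 9.53 on day 7, against 10.20, 9.93, 10.72, 10.44 and 10.45 on day 5. Every array of day 7 lay below every array of day 5, by 0.98 ± 0.17 on average (limma, adjusted p = 0.000189).

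The spindle checkpoint kinases BUB1 and BUB1B, the mitotic kinase CDK1, the checkpoint target CDC20, the ubiquitin ligase partner UBE2C, the chromosome passenger protein BIRC5, the spindle protein NUSAP1 and the kinetochore protein CENPN fell by 2.14 to 2.72. SHCBP1, a protein of the dividing midbody, and PCLAF, which binds the replication clamp, fell by 2.21 and 2.57. In all 10 genes named in the last 2 sentences the days overlapped on at least 1 array, and array 4 of day 7 had the highest value of its day. Among the replication helicase subunits MCM6 fell by 1.49 and MCM4 by 1.35, and MCM5, chosen after its values were seen, fell by 1.11. UHRF1, which links DNA methylation to replication, fell by 1.68 and CKS2, a partner of the cyclin-dependent kinases chosen after its values were seen, by 1.89. Omissions of 1 array ended the call of UHRF1 in 8 cases, of MCM5 and CDC20 in 3 each and of SHCBP1 in 2, and leaving out array 3 of day 7 ended those of UBE2C, CDK1 and NUSAP1, whose differences then lay between -2.06 and -1.83.

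Over the members the mean level of the mitosis genes was 4.34, 4.41, 3.99, 5.44 and 4.30 on day 7, against 5.41, 4.79, 7.01, 5.99 and 6.03 on day 5. Array 4 of day 7 stood above 2 of the day 5 arrays, and the remaining 4 arrays of day 7 lay below all of day 5. Replication genes averaged 6.01 to 6.29 on day 7, against 6.33 to 7.08 on day 5, with no overlap. The number of fallen mitosis genes was 10 without array 3 of day 7, 13 without array 3 of day 5 and 11 without arrays 2 and 5 of day 7. For replication genes it was 9, 7 and 7 under the same omissions and 8 without array 4 of day 5. Cyclins, other cell cycle kinases and their inhibitors stayed near the background: of 18 genes CCNE2, the cyclin of the entry into DNA synthesis, fell by 1.29 and CCNG1, a target of p53, rose by 0.53. Both calls were lost without array 3 of day 7, and 6 of 10 omissions ended that of CCNE2 and 9 that of CCNG1.

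**Figure D2:**
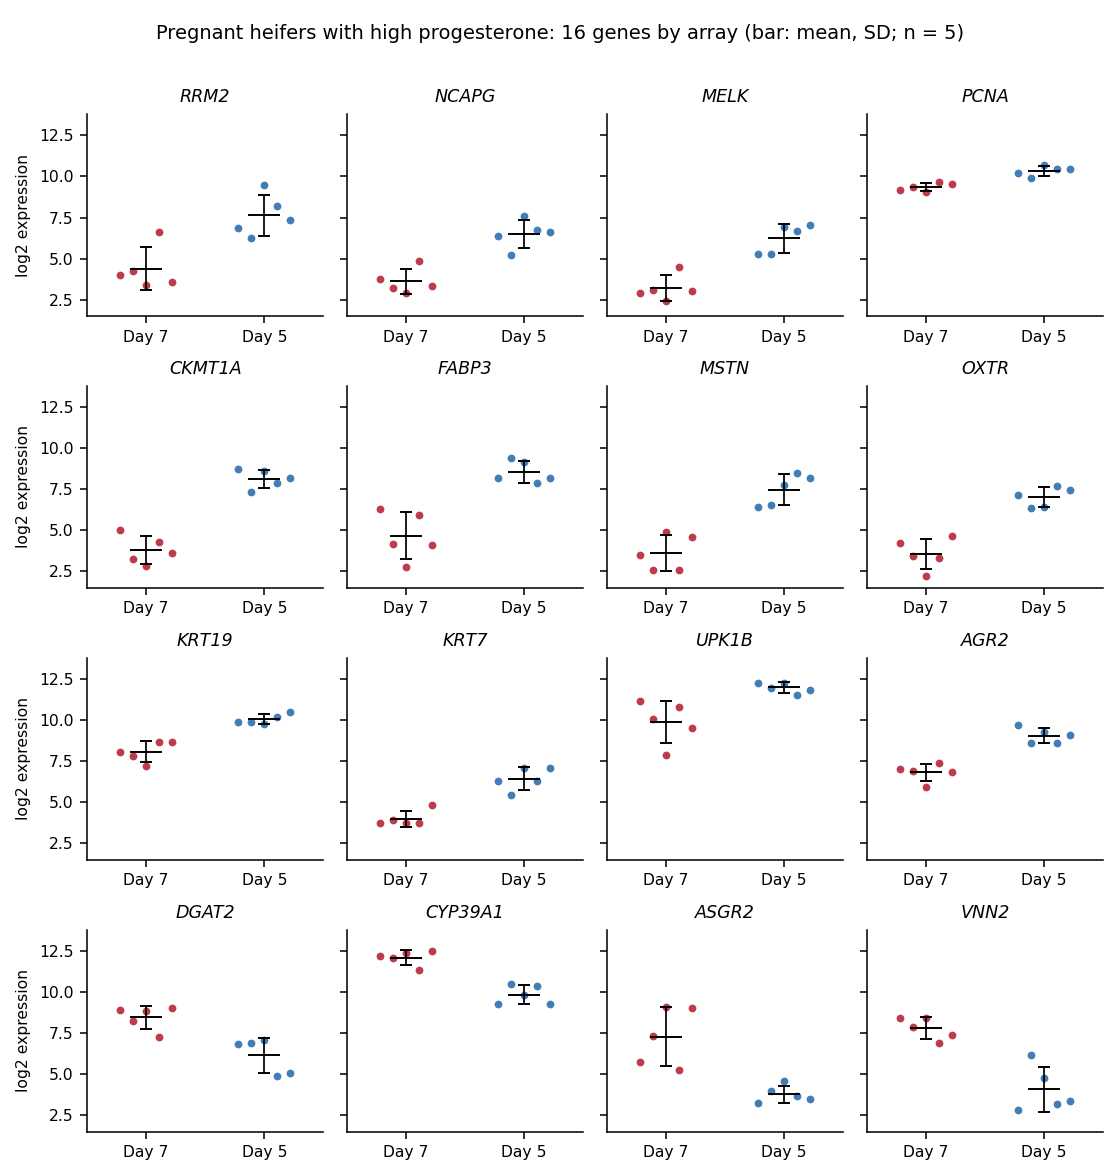
Log2 expression of 16 genes on each array (points), day 7 left of day 5, with the mean and SD of the 5 arrays as bars. The 12 genes of the upper 3 rows are lower on day 7, as CKMT1A at 2.85 to 5.04 against 7.33 to 8.73, and the 4 of the lowest row are higher, as CYP39A1 at 11.33 to 12.48 against 9.25 to 10.50.

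The receptor for oxytocin, OXTR, which later passes the signal for luteolysis, fell on every array. It read 4.24, 3.46, 2.25, 3.29 and 4.63 on day 7, against 7.17, 6.37, 6.45, 7.70 and 7.46 on day 5. The days did not overlap, and the difference of -3.46 ± 0.82 was an 11-fold lower level on day 7 (limma, adjusted p = 0.00614). The estrogen receptor ESR1 averaged 2.71 ± 0.43 on day 7 and 3.41 ± 0.45 on day 5, near the floor on both days, and fell by 0.70 ± 0.21 (limma, adjusted p = 0.0365). Its groups overlapped and 8 of 10 omissions of 1 array ended its call, with differences between -0.89 and -0.58. The progesterone receptor PGR averaged 2.60 ± 0.10 on day 7 and 3.14 ± 0.70 on day 5 and did not pass (limma, adjusted p = 0.403). PGR too was near the floor on both days, where a fall can be missed. Its highest value was 4.30 on array 2 of day 5, and the other 9 arrays lay between 2.51 and 3.30.

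Of 19 estrogen-response genes 3 fell and 0 rose, 15.8% beside 6.01% of all named genes: OXTR, ESR1 and KRT19. The median of this list was -0.08. KRT19, a keratin of simple epithelia, read 8.04, 7.82, 7.21, 8.70 and 8.66 on day 7, against 9.91, 9.90, 9.75, 10.22 and 10.53 on day 5, 3.93-fold lower with no overlap (limma, adjusted p = 0.000275). KRT7, its partner in simple epithelia, averaged 3.99 ± 0.47 on day 7 and 6.44 ± 0.69 on day 5 and fell by 2.45 ± 0.52 (limma, adjusted p = 0.00233), again with no overlap. KRT18, chosen after its values were seen, averaged 10.07 ± 0.40 on day 7 and 10.15 ± 0.23 on day 5 (adjusted p = 0.98).

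Besides the keratins, the list of 23 epithelial junction genes held 2 that rose: CGN, the tight junction protein cingulin, by 0.84 and F11R, the junctional adhesion molecule A, by 0.46. Leaving out array 3 or array 5 of day 7 ended both calls, as did leaving out arrays 2 and 5, and F11R lost its call in 8 of 10 omissions. The median of the list was 0.01, and 8.7% of it rose and 8.7% fell, beside 1.75% and 6.01% of all named genes. AGR2, a disulfide isomerase of secretory epithelia, fell by 2.24 ± 0.43, at 5.95 to 7.40 on day 7 and 8.62 to 9.72 on day 5. UPK1B, a tetraspanin of epithelial surfaces, read 11.19, 10.06, 7.90, 10.78 and 9.54 on day 7, against 12.30, 11.99, 12.30, 11.56 and 11.86 on day 5. Every array of day 7 was lower, by 2.11 ± 0.52 on average (limma, adjusted p = 0.00851), and array 3 the lowest of them. Without that array its call was lost, at -1.61. FUT2, a fucosyltransferase of mucosal surfaces, fell by 1.48, a call lost without array 1 of day 7 or array 5 of day 5, with differences between -1.79 and -1.30 over the omissions. Ciliated cell genes were below 0 in 11 of 11 cases, with a median of -0.39, and 0 passed the test.

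Among 45 genes of the progesterone response and histotroph 4 rose and 4 fell, 8.89% each beside 1.75% of all genes higher and 6.01% lower, and the median was 0.09. The list was chosen with earlier results of these data known, so these shares are no independent support for it. DGAT2, the last enzyme of triglyceride synthesis, read 8.89, 8.24, 8.84, 7.28 and 9.02 on day 7, against 6.83, 6.90, 7.09, 4.89 and 5.09 on day 5. Day 7 was higher on every array, by 2.30 ± 0.62 or 4.91-fold (limma, adjusted p = 0.0186). Its call was lost without array 3 of day 7 or without array 4 or 5 of day 5, the arrays with the lowest values of that day, and the difference lay between 1.98 and 2.59 over the omissions. In each of these 3 cases, and without arrays 2 and 5 of day 7, 2 members of the list were called higher in place of 4. HPSE, the heparanase that cleaves heparan sulfate, averaged 4.95 ± 0.88 on day 7 and 3.36 ± 0.65 on day 5 and rose by 1.59 ± 0.38 (limma, adjusted p = 0.00683). SLC1A1, a transporter of glutamate and aspartate, rose 3.00-fold, at 9.52 to 10.50 on day 7 and 7.44 to 9.32 on day 5 (limma, adjusted p = 0.0375), and 7 of 10 omissions ended its call. TIMP2, an inhibitor of matrix metalloproteinases, rose by 0.74 ± 0.19 and kept its call in all 10, but not without arrays 2 and 5 of day 7.

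MSTN, the growth inhibitor myostatin, and FABP3, a carrier of fatty acids, fell most in this list. MSTN read 3.51, 2.57, 4.88, 2.58 and 4.62 on day 7, against 6.42, 6.56, 7.74, 8.49 and 8.21 on day 5, 14.4-fold lower on day 7 (-3.85 ± 0.74, limma, adjusted p = 0.000777). FABP3 read 6.28, 4.18, 2.80, 5.93 and 4.12 on day 7, against 8.17, 9.42, 9.16, 7.87 and 8.17 on day 5, 14.9-fold lower (-3.89 ± 0.70, limma, adjusted p = 0.000322). Neither gene overlapped between the days, and day 7 arrays spread more widely than day 5 arrays in FABP3. The galactose-binding lectin LGALS3, chosen after its values were seen, fell 2.35-fold, and UPK1B, given above, was the fourth.

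Other genes tied to progesterone in cattle did not pass the test. DKK1, an inhibitor of Wnt signalling, averaged 6.81 ± 1.52 on day 7 and 5.76 ± 0.50 on day 5 (adjusted p = 0.517): 4 arrays of day 7 read 6.92 to 8.38, above all of day 5, and array 5 read 4.28. The meprin subunit MEP1B averaged 3.73 ± 1.47 on day 7 and 2.40 ± 0.20 on day 5 (adjusted p = 0.0652), with array 1 of day 7 at 6.12. The iron-binding protein LTF averaged 12.34 on day 7 and 12.26 on day 5, the aminopeptidase ANPEP 9.86 on day 7 and 9.81 on day 5, the polymerase TIPARP 9.13 on day 7 and 8.49 on day 5, and the chaperone FKBP5 6.71 on day 7 and 6.41 on day 5. Their adjusted p were 0.987, 0.987, 0.302 and 0.98.

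CYP39A1, a hydroxylase that acts on oxysterols, read 12.21, 12.09, 12.37, 11.33 and 12.48 on day 7, against 9.25, 10.50, 9.85, 10.37 and 9.27 on day 5. No array overlapped, and the difference was 2.25 ± 0.49, 4.75-fold (limma, adjusted p = 0.00326). CYP27A1, the sterol 27-hydroxylase of mitochondria, rose by 0.92, ACOX3, a peroxisomal oxidase of branched fatty acids, by 1.26 and ECI2, an isomerase of unsaturated fatty acid oxidation, by 0.93, all 3 chosen after their values were seen and all 3 without overlap between the days. The calls of ACOX3 and ECI2, but not that of CYP27A1, were lost in 3 and 5 of the 10 omissions. In the list of 41 genes of triglyceride and fatty acid metabolism 2 rose, DGAT2 and the lipase PNPLA2 (by 0.62), and 2 fell, FABP3 and the elongase ELOVL1 (by 0.73), with a median of -0.02. Each count is 4.88% of the list, beside 1.75% of all named genes higher and 6.01% lower. Without array 3 of day 7, or array 4 or 5 of day 5, 0 members of this list were called higher, and 1 without arrays 2 and 5 of day 7. None of 19 genes of cholesterol synthesis and uptake changed, and their median was 0.03. CRABP2, which carries retinoic acid to the nucleus, was chosen after its values were seen and fell by 1.86 ± 0.46, with no overlap.

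CKMT1A, the mitochondrial creatine kinase that hands ATP to creatine, had the lowest difference of all changed genes. It read 5.04, 3.25, 2.85, 4.29 and 3.60 on day 7, against 8.73, 7.33, 8.60, 7.87 and 8.17 on day 5. The highest array of day 7, at 5.04, lay below the lowest of day 5, at 7.33, and the difference of -4.33 ± 0.55 was a 20.2-fold lower level on day 7 (limma, adjusted p = 5.39e-07). CKB, the creatine kinase of the cytosol, chosen after its values were seen, read 8.43, 9.14, 8.80, 9.60 and 9.49 on day 7, against 10.71, 11.03, 11.43, 10.33 and 10.18 on day 5. Again no array overlapped, at 3.13-fold lower on day 7 (limma, adjusted p = 0.0015). Both calls held in all 10 omissions.

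Genes of mitochondria fell by small amounts. Of 74 genes of the respiratory chain 31 fell, 41.9%, and 0 rose, and 72 of the 74 differences were below 0 with a median of -0.37. Of 66 genes of the mitochondrial ribosome 19 fell, 28.8%, with a median of -0.30. The mean level of the respiratory chain was 10.33 to 10.51 on day 7 and 10.57 to 10.89 on day 5, and that of the mitochondrial ribosome 8.01 to 8.13 on day 7 and 8.28 to 8.54 on day 5, with no overlap in either. NDUFS8 and NDUFA12, subunits of complex I, fell by 0.77 and 0.65, COX5A of complex IV by 0.66 and ATP5MC1 of the ATP synthase by 0.65. The proteins MRPS28, MRPS17, MRPS26 and MRPL48 of the mitochondrial ribosome fell by 0.76 to 0.97. Of these 8 genes, ATP5MC1 lost its call in 6 omissions and MRPL48 in 2, and the others kept theirs.

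The count of fallen respiratory chain genes was 15 without array 3 of day 7, 18 without array 2 of day 7, 18, 19 and 20 without arrays 1, 2 and 5 of day 5, and 11 without arrays 2 and 5 of day 7. For the mitochondrial ribosome it was 12 without array 1 of day 7, 11 without array 5 of day 5 and 11 without arrays 2 and 5 of day 7. Cytosolic ribosomal proteins behaved otherwise: of 62 measured 0 changed, their median was -0.05, and their mean level was 13.32 to 13.52 on day 7 and 13.35 to 13.57 on day 5.

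Of 27 measured subunits of the proteasome, which degrades tagged proteins, 11 fell and 0 rose. All 27 differences were below 0 with a median of -0.38, and the 11 that passed, 40.7%, included PSMA4 (-0.71), PSMB6 (-0.63), PSMD14 (-0.62) and PSMB2 (-0.55). Those 4 kept their calls in all 10 omissions of 1 array, while the count was 7 without array 1 of day 7 or array 1 of day 5 and 13 without array 5 of day 7. Of 29 genes of ribosome biogenesis and translation 6 fell, 20.7%, with a median of -0.43. FBL, the methylase of ribosomal RNA, fell by 0.80 and NHP2, a protein of small nucleolar particles, by 0.84. MRTO4 of large subunit assembly fell by 0.65 and EIF4EBP1, which holds back the cap-binding factor, by 0.93. MRTO4 lost its call in 6 omissions and EIF4EBP1 in 3, and 3 and 2 members of this list were called without array 1 and array 3 of day 7.

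Protein folding in the endoplasmic reticulum showed 8 falls among 43 genes, 18.6%, with a median of -0.29. They included KDELR3, which retrieves proteins to that compartment (-1.02), MANF, a protective factor of it (-0.76), SSR4, a part of the translocon complex (-0.66), and P4HB, a disulfide isomerase (-0.60). The count was 3 to 5 without array 1, 2, 4 or 5 of day 5, 4 without array 3 of day 7, 5 without arrays 2 and 5 of day 7, 10 without array 4 of day 7 and 12 without array 3 of day 5, and MANF lost its call in 6 omissions. ERO1A, the oxidase that recharges disulfide isomerases, went the other way. It read 8.29, 6.43, 7.52, 6.63 and 7.09 on day 7, against 5.69, 5.81, 4.72, 5.82 and 4.92 on day 5, with no overlap, and rose by 1.80 ± 0.46 (limma, adjusted p = 0.0116). Its call was lost without array 1 of day 7, its highest, at the smallest difference over the omissions, 1.53.

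In glycolysis 6 of 28 genes fell, 21.4%, with a median of -0.24: among them PKM by 0.92, ALDOC by 0.81, LDHA by 0.71 and TPI1 by 0.63. TPI1 kept its call in every omission. PKM lost it in 3, LDHA in 8 and ALDOC in 7, and the number of fallen glycolysis genes was 1 without array 3 of day 5, 2 without array 1 or 2 of day 5 or array 1 of day 7, 3 without array 2, 3 or 5 of day 7 and 2 without arrays 2 and 5. Of 42 genes of glutathione and redox metabolism 4 fell, 9.52%, a share near the 6.01% of all named genes: GPX7 by 1.05, TXN by 0.80, PRDX4 by 0.53 and GPX4 by 0.52. This count was 1 without array 3 of day 7, 2 without array 5 of day 5 and 1 without arrays 2 and 5 of day 7. Of 33 genes of serine, one-carbon and nucleotide synthesis 5 fell, 15.2%, led by SHMT2, the mitochondrial serine hydroxymethyltransferase (-0.86, held in every omission), with the purine enzymes GART (-0.45), GMPS (-0.43) and ADSL (-0.41). The count of this list was 2 without array 3 of day 7 or array 1 of day 5 and 3 without array 2 or 5 of day 7 or array 2 or 3 of day 5 and 2 without arrays 2 and 5 of day 7, and GART, GMPS and ADSL lost their calls in 9, 7 and 2 omissions.

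Matrix genes were lower on day 7 in most cases. Of 42 collagens and matrix genes 36 were below 0 with a median of -0.50, and 6 passed, 14.3%, all lower. LOXL1, which cross-links elastin, read 8.18, 8.44, 8.10, 8.15 and 8.45 on day 7, against 9.78, 10.29, 10.08, 10.10 and 9.58 on day 5. The days were far apart relative to their spread, and the difference was -1.70 ± 0.28 (limma, adjusted p = 9.08e-05). COL5A2, a chain of type V collagen, fell by 1.19, and fibronectin FN1, chosen after its values were seen, by 1.15, both with no overlap and with calls held in every omission. SERPINH1, the collagen chaperone, fell by 1.23, and P4HA2, a collagen prolyl hydroxylase chosen after its values were seen, by 1.01. SERPINH1 lost its call without array 3 of day 7 or array 2 of day 5, at differences down to -1.10.

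In the list of 17 stromal genes 2 fell and 1 rose, 11.8% and 5.88%, with a median of -0.44, beside 6.01% lower and 1.75% higher over all named genes. Without array 5 of day 7 the counts were 3 and 1, and without arrays 2 and 5 they were 4 and 0. S100A4, a calcium-binding protein of fibroblasts and leukocytes, read 11.40, 10.34, 9.88, 11.10 and 9.65 on day 7, against 12.58, 12, 12.41, 11.97 and 11.98 on day 5, 3.28-fold lower with no overlap (limma, adjusted p = 0.00029). DPT, the matrix protein dermatopontin, averaged 6.94 ± 1.24 on day 7 and 8.95 ± 0.90 on day 5 and fell by 2.02 ± 0.61 (limma, adjusted p = 0.0375). Its day 7 arrays 1 to 4 read 6.06 to 6.96 and array 5, the one high in smooth muscle genes, 9.08. Its call was lost in 8 of 10 omissions, with differences between -2.55 and -1.80. DPP4, a surface peptidase, read 5.96, 5.69, 6.96, 3.95 and 5.85 on day 7, against 3.30, 3.71, 3.97, 4.34 and 4.44 on day 5. Array 4 of day 7 lay within the range of day 5, and the rise of 1.73 ± 0.47 (limma, adjusted p = 0.0186) was lost without array 3 of day 7 or array 1 of day 5, at differences down to 1.41.

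Beside these, of 18 laminins and integrins ITGA5, the fibronectin receptor subunit, fell by 1.16, a call lost in 9 of 10 omissions. That is 5.56% of the list, near the 6.01% of all named genes lower. Of 32 proteases and inhibitors of the matrix MMP19 fell by 0.91, lost in 5, and TIMP2 rose. Each is 3.12% of the list, beside 6.01% lower and 1.75% higher over all named genes. Smooth muscle genes did not change as a group, with 0 of 11 called and a median of 0.20. ACTA2, chosen after its values were seen, read 10.62, 10.39, 10.29, 10.38 and 13.88 on day 7, against 10.88, 12, 11.45, 11.76 and 11.96 on day 5 (adjusted p = 0.919). Without array 5 of day 7 its arrays would lie wholly below those of day 5. The part of smooth muscle in the other results of array 5 was not tested.

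Macrophage genes were lower on day 7 in sign, and 1 passed the test, 6.25% of the list beside 6.01% of all named genes lower. All 16 measured genes had differences below 0 with a median of -0.57, beside -0.032 over all genes, and their mean was 4.94 to 5.87 on day 7 and 5.74 to 6.20 on day 5. CD68, a lysosomal protein of macrophages, read 4.66, 3.91, 3.67, 4.63 and 5.07 on day 7, against 6.49, 6.39, 5.89, 5.29 and 5.80 on day 5. Its days did not overlap, and the difference was -1.58 ± 0.45 (limma, adjusted p = 0.0254), lost without array 2 or 3 of day 7 or array 1 or 2 of day 5, at -1.75 to -1.40 over the omissions. Without arrays 2 and 5 of day 7, 0 of 16 were called at a median of -0.73.

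Outside that list the lectin CD209 of dendritic cells fell by 1.70, the adhesion molecule CD48 of leukocytes by 1.71 and the clotting factor subunit F13A1, known from tissue macrophages, by 1.55. They were chosen after their values were seen. None of the 3 overlapped between the days, and array 3 of day 7 was the lowest in each of CD48, F13A1 and CD68. CD209 ended near the floor, at 2.47 to 2.94 on day 7, against 3.31 to 5.72 on day 5. Omissions ended the call of CD209 in 1 case, of F13A1 in 3 and of CD48 in 6. None of 22 T and natural killer cell genes, 9 B and plasma cell genes, 13 neutrophil and mast cell genes or 19 endothelial genes changed, with medians between -0.02 and 0.04, though 9, 7, 10 and 3 of them lay under 3 on both days.

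The 2 highest differences of all belonged to probe sets of MHC class I genes. BOLA read 12.05, 12.06, 13.77, 11.88 and 12.54 on day 7, against 2.32, 12.52, 2.75, 2.81 and 2.79 on day 5, a difference of 7.82 ± 1.80 (limma, adjusted p = 0.00474). BOLA-N read 9.07, 13.07, 13.76, 11.15 and 11.87 on day 7, against 2.90, 13.14, 2.83, 2.62 and 2.92 on day 5, a difference of 6.90 ± 2.00 (limma, adjusted p = 0.0297). On day 5 array 2 was as high as day 7 in both, and the other 4 arrays were near the floor. BOLA kept its call in all 10 omissions of 1 array, with differences between 7.24 and 9.79, and BOLA-N lost its call in 7, with differences between 6.33 and 8.96. Over all 79 arrays values were of 2 kinds: for BOLA 10 arrays lay at 4.19 or below and the rest at 10.53 or above, and for BOLA-N 16 lay at 6.21 or below and the rest at 7.84 or above. In pregnant heifers with normal progesterone the same difference was -1.65 for BOLA and in cyclic heifers with high progesterone -2.96. Class I genes differ in sequence from animal to animal, and whether these probe sets follow the animal or the day was not tested. Of 25 antigen presentation genes BOLA was the only one called, 4.0% beside 1.75% of all named genes higher, and the median of the list was -0.18.

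Interferon-stimulated genes leaned upwards on day 7 without a call. Of 37 measured 35 had differences above 0 with a median of 0.52, and 0 passed the test. ISG15, the ubiquitin-like protein of this response, read 6.83, 12.73, 7.24, 7.42 and 10.40 on day 7, against 6.90, 6.19, 7.37, 7.87 and 6.75 on day 5 (adjusted p = 0.424). MX2, an antiviral GTPase, read 7.16 on array 2 and 3.50 on array 5 of day 7 and 2.06 to 2.20 on the other 8 arrays (adjusted p = 0.654). RSAD2, another antiviral enzyme, read 4.27, 9.56, 3.37, 5.25 and 6.26 on day 7, against 3.36 to 4.14 on day 5 (adjusted p = 0.291). These 3 genes were chosen after their values were seen. Without arrays 2 and 5 the median of the list was -0.05 and the difference of MX2 was -0.03.

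**Figure D3:**
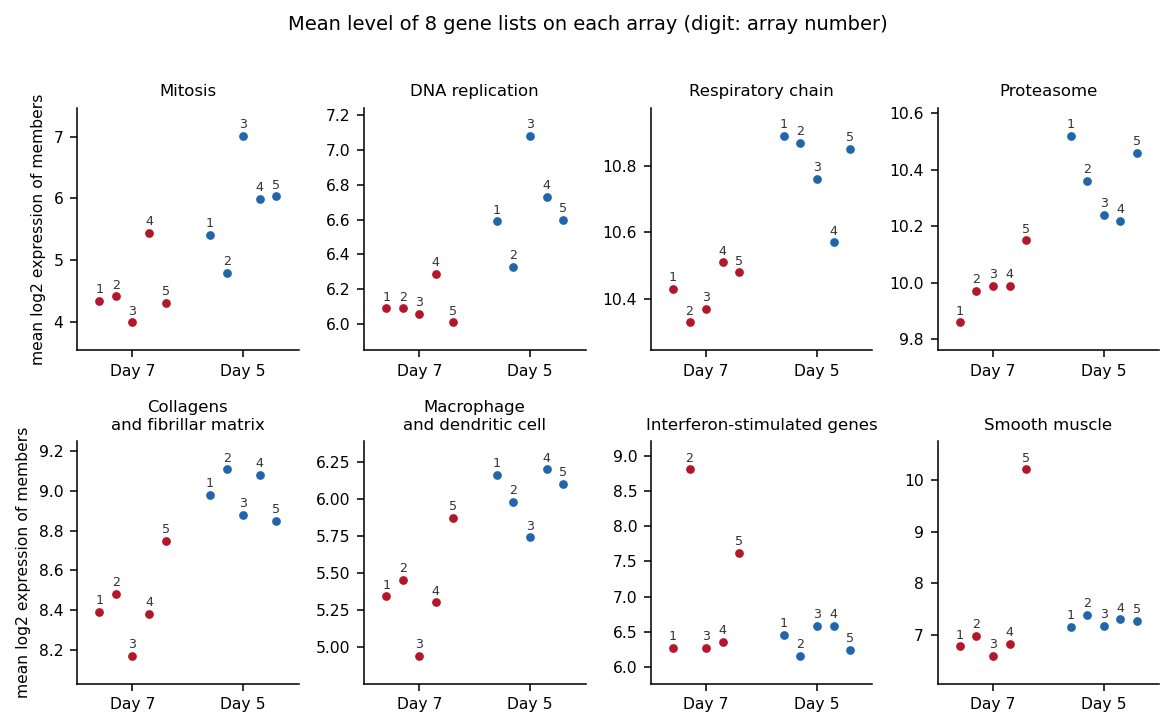
Mean log2 expression of the members of 8 gene lists on each array of day 7 (red, left) and day 5 (blue, right), each panel on its own axis, with the array number beside each point. Mitosis, replication, respiratory chain, proteasome and collagen means are lower on day 7 with at most array 4 within the range of day 5 for mitosis, while arrays 2 and 5 stand alone for interferon-stimulated genes (8.81 and 7.62) and array 5 for smooth muscle (10.20).

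Among surface and secreted proteins VNN2 and ASGR2 rose most after the class I probe sets. VNN2, a vanin of the family that releases pantothenate, read 8.42, 7.89, 8.41, 6.90 and 7.37 on day 7, against 2.84, 6.17, 4.75, 3.19 and 3.38 on day 5. The days did not overlap, although array 2 of day 5 came close at 6.17, and the rise was 3.74 ± 0.95 or 13.3-fold (limma, adjusted p = 0.0108). ASGR2, a subunit of the receptor that binds galactose-ended glycoproteins, read 5.74, 7.30, 9.08, 5.24 and 9.06 on day 7, against 3.23, 3.97, 4.56, 3.68 and 3.46 on day 5, an 11.4-fold rise with no overlap (limma, adjusted p = 2.37e-05). HAVCR1, a receptor for phosphatidylserine, read 4.29, 4.55, 2.44, 2.05 and 5.82 on day 7 and 2.05 to 2.06 on day 5. It was off the floor on 3 or 4 arrays of day 7 and on none of day 5. Its rise of at least 1.77 ± 0.37 (limma, adjusted p = 0.00168) held in every omission, though the days overlapped. That SE rests on a spread shared by all 16 groups. The SD of day 7 was 1.57, so the SE and p understate the spread of that day. BPIFA1, a secreted protein of mucosae, rose by 1.53 and CNGA1, a cation channel gated by cyclic nucleotides, by 1.49, with overlap in both. BPIFA1 lost its call in 5 omissions and CNGA1 without array 5 of day 7, its highest, at differences down to 1.08.

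TNFRSF6B, a decoy receptor for ligands of the tumour necrosis factor family, went down. It read 3.69, 4.15, 2.25, 3.92 and 2.16 on day 7, against 6.52, 7.23, 6.41, 5.37 and 3.98 on day 5, and fell by 2.67 ± 0.59 (limma, adjusted p = 0.00322), with array 5 of day 5 just inside the range of day 7. AREG, amphiregulin, a ligand of the epidermal growth factor receptor, averaged 2.65 ± 0.27 on day 7 and 4.49 ± 1.79 on day 5 and fell by 1.84 ± 0.44, so that it ended at the floor. Its call was lost without array 2 of day 5, which read 7.28, at a difference of -1.14. CLU, the secreted chaperone clusterin, was the 1 member of 31 complement and acute phase genes that changed, a rise of 0.68 ± 0.15 with no overlap. That is 3.23% of the list, beside 1.75% of all named genes higher.

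INSR, the insulin receptor, rose 3.74-fold, at 6.45 to 7.55 on day 7 and 3.62 to 6.09 on day 5 (limma, adjusted p = 0.0425), but lost its call in 8 of 10 omissions. FBXO32, a ubiquitin ligase known from wasting muscle, read 5.40, 4.41, 4.69, 6.05 and 6.62 on day 7, against 3.73, 2.69, 4.09, 3.50 and 3.79 on day 5, and rose by 1.88 ± 0.39 with no overlap (limma, adjusted p = 0.00206). TSC1, a brake on mTOR, rose by 1.00 ± 0.21, and FOXO4, a transcription factor that insulin signalling keeps out of the nucleus, by 0.97 ± 0.30. Both were chosen after their values were seen, and FOXO4 lost its call in 6 omissions while TSC1 kept its own in all.

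ACVR2B, a receptor that binds activin and myostatin, rose by 1.05 ± 0.26, at 6.62 to 7.27 on day 7 and 5.23 to 6.45 on day 5, a call lost without array 4 of day 5, with differences between 0.89 and 1.20 over the omissions. SMAD2, which carries the signal of such receptors, fell by 0.48 ± 0.12. With MSTN these were the 3 of 30 genes of the TGF-beta system that changed. Their shares, 3.33% higher and 6.67% lower, lay near the 1.75% and 6.01% of all named genes, with a list median of -0.08. In the prostaglandin list of 16 genes AKR1B1, a reductase that makes prostaglandin F2alpha in bovine endometrium, rose by 0.88 with no overlap. ANXA1, annexin A1, fell 2.14-fold with no overlap, and PTGES3, a co-chaperone of the steroid receptors also known as a prostaglandin E synthase, fell by 0.40. AKR1B1 lost its call in 9 of 10 omissions, PTGES3 in 4 and ANXA1 in none, and without arrays 2 and 5 of day 7 the list had 0 higher and 1 lower gene. The chaperone HSP90AA1 and the mitochondrial dehydrogenase HSD17B10 fell by 0.42 and 0.58 among 27 genes of steroid receptors and steroid metabolism, and were lost in 9 and 5 omissions. With ESR1 these were the 3 members of that list that fell, and 1 did without arrays 2 and 5 of day 7. The falls are 11.1% of that list and its 1 rise 3.7%, beside 6.01% and 1.75% of all named genes.

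Other genes high in the ranking were PROCA1, a cyclin-binding protein (1.65 ± 0.28, limma, adjusted p = 0.000184), the ubiquitin ligase TRIM45 (1.86), the reticulon RTN1 (1.59), the intercellular bridge protein TEX14 (1.41) and the initiator caspase CASP9 (1.38). PROCA1 read 4.75 to 5.70 on day 7 and 3.27 to 3.86 on day 5. RTN1 was the only one of the 5 to lose its call, in 5 omissions. PCMTD1, chosen after its values were seen, rose only 1.78-fold but with little spread, at 10.06 to 10.36 on day 7 and 9.04 to 9.81 on day 5 (limma, adjusted p = 2.66e-05).

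Few further lists held a changed gene. ATP1B3, a subunit of the sodium pump, fell by 0.82 among 37 genes of ion and water transport, and BNIP3, a mitochondrial protein of the response to low oxygen, rose by 0.57 among 20 genes of hypoxia and angiogenesis, a call that 4 omissions ended. AREG was the 1 changed gene of 25 growth factors and receptors, FUT2 of 23 genes of glycosylation, INSR of 15 genes of the IGF system and SLC1A1 of 17 amino acid transporters. The falls are 2.7% of the ion transport, 4.0% of the growth factor and 4.35% of the glycosylation list, beside 6.01% of all named genes. The rises are 5.0% of the hypoxia, 6.67% of the IGF and 5.88% of the amino acid list, 1 gene each, beside 1.75%. None changed among 19 immediate early genes, 39 chemokines and cytokines, 24 Wnt genes, 24 developmental regulators of the Hedgehog and Notch kind or 7 clock genes, whose medians lay between -0.01 and 0.11.

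The same days were then set against each other in other heifers. In pregnant heifers with normal progesterone 251 named genes, 2.74%, were higher on day 7 and 408, 4.46%, lower. In cyclic heifers with high progesterone 534, 5.83%, were higher and 1240, 13.5%, lower, and in cyclic heifers with normal progesterone 1 gene, 0.0109%, was higher and 1, 0.0109%, lower. These heifers share no array with the pregnant heifers with high progesterone. In cyclic heifers with high progesterone array 3 of day 7 had a median of 4.71, the lowest of the series. That array and array 3 of day 5 lay far from their group means (SD of deviations 0.571 and 0.604). So did array 5 of day 7 in cyclic heifers with normal progesterone (0.565), against 0.264 to 0.355 in pregnant heifers with high progesterone. All counts from these cyclic heifers carry that limit. Of the 160 genes that rose in pregnant heifers with high progesterone, 146 had the same sign in pregnant heifers with normal progesterone, where 37 were called, and 155 in cyclic heifers with high progesterone, where 102 were called. Of the 550 that fell, 523 had the same sign in pregnant heifers with normal progesterone, where 174 were called, and 544 in cyclic heifers with high progesterone, where 389 were called. The called genes in common made up 23.1% of the 160 and 14.7% of the 251 for pregnant heifers with normal progesterone, and 63.8% of the 160 and 19.1% of the 534 for cyclic heifers with high progesterone. Among genes that fell these shares were 31.6% of the 550 and 42.6% of the 408 for pregnant heifers with normal progesterone, and 70.7% of the 550 and 31.4% of the 1240 for cyclic heifers with high progesterone. In cyclic heifers with normal progesterone 124 of the 160 and 487 of the 550 had the same sign, 77.5% and 88.5%, and 0 and 1 of them were called. No gene was called in opposite directions.

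**Figure D4:**
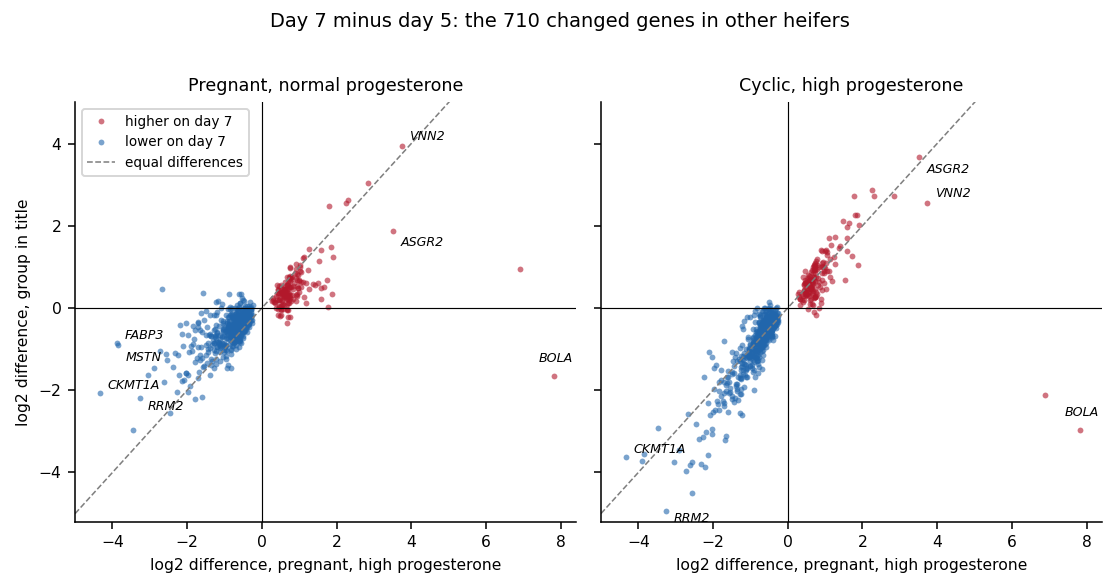
Log2 difference, day 7 minus day 5, of the 710 changed genes in pregnant heifers with high progesterone (x axis) and in other heifers (y axis): pregnant with normal progesterone on the left, cyclic with high progesterone on the right. Most points keep their sign, FABP3 and MSTN lie at -0.86 and -0.90 on the left and at -3.72 and -3.55 on the right, and BOLA is above 0 on the x axis and below 0 in both panels.

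The difference between the courses was also tested itself. Against pregnant heifers with normal progesterone 2 of 24016 probe sets, 0.00833%, passed, and 1436 had an unadjusted p under 0.05. Against cyclic heifers with high progesterone 0 probe sets, 0.0%, passed in limma, and 2491 had an unadjusted p under 0.05. One of the 2 probe sets has no gene symbol. The other is 1 of 6 probe sets of AKR1C4, an aldo-keto reductase of steroid metabolism, and was chosen after its values were seen. It read 2.38, 2.35, 2.35, 2.37 and 2.44 on day 7, against 4.17, 6.27, 8.03, 7.07 and 4.72 on day 5, while in pregnant heifers with normal progesterone its difference was 0.02, so the courses differed by -3.70 ± 0.73 (limma, adjusted p = 0.0492). In limma 0 probe sets passed when arrays were centred on their median or when only the groups compared were fitted, and 0 to 6 passed when 1 array was left out, with 0 without array 1 or 3 of day 7 or array 2 or 4 of day 5 of the pregnant heifers with high progesterone. The 6 probe sets disagreed: 3 fell, by 3.67, 2.24 and 1.17, 2 read under 3 on both days, and the brightest had a difference of 0.95 (adjusted p = 0.654), so the direction of AKR1C4 as a gene is uncertain.

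Among the 20 lowest genes the courses lay farthest apart for TNFRSF6B, FABP3 and MSTN. TNFRSF6B differed by 0.47 in pregnant heifers with normal progesterone and FABP3 and MSTN by -0.86 and -0.90, so the courses differed by -3.14 ± 0.83, -3.03 ± 0.99 and -2.95 ± 1.05 (limma, adjusted p = 0.378, 0.495 and 0.566), none past the test. In cyclic heifers with high progesterone TNFRSF6B, FABP3 and MSTN had differences of -2.59, -3.72 and -3.55. For MSTN the day 5 level was what stood apart: it averaged 7.48 ± 0.95 in pregnant heifers with high progesterone and 4.21 ± 0.82 in those with normal progesterone, while on day 7 it averaged 3.63 ± 1.09 with high and 3.31 ± 0.31 with normal progesterone. For FABP3 the day 7 level stood apart, at 4.66 ± 1.43 with high and 8.01 ± 1.37 with normal progesterone, against 8.56 ± 0.68 with high and 8.88 ± 0.86 with normal progesterone on day 5. HAVCR1 was at the floor in pregnant heifers with normal progesterone on both days, at 2.08 ± 0.02 on day 7 and 2.05 ± 0.02 on day 5, and rose by 2.72 in cyclic heifers with high progesterone. The difference between the courses in HAVCR1 was 1.75 ± 0.52 against pregnant heifers with normal progesterone (limma, adjusted p = 0.423). OXTR, KRT7, DGAT2, CYP39A1 and VNN2 had the same sign in both groups of pregnant heifers, with differences of -2.97, -2.56, 2.63, 2.56 and 3.94 with normal progesterone, all called there.

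List counts in the other heifers are to be set beside 4.46% of all named genes lower in pregnant heifers with normal progesterone and 13.5% lower in cyclic heifers with high progesterone. Of the 44 mitosis genes 6 fell and 1 rose in pregnant heifers with normal progesterone, with a median of -0.77, and 35 fell in cyclic heifers with high progesterone, with a median of -2.14. In the respiratory chain 5 and 22 of 74 genes fell in these groups, the 5 being near that background, with medians of -0.18 and -0.24, and in the proteasome 12 and 11 of 27, with medians of -0.43 and -0.29. Cytosolic ribosomal proteins, of which 0 changed in pregnant heifers with high progesterone, had 21 falls of 62 in pregnant heifers with normal progesterone at a median of -0.15. Macrophage genes had 14 falls of 16 in cyclic heifers with high progesterone, with a median of -1.55. The list mean in those heifers was 5.08 to 5.26 on day 7 and spread from 5.53 to 9.09 on day 5 (SD 1.40). In pregnant heifers with normal progesterone 0 macrophage genes fell, with a median of -0.07. The differences between groups in these counts were not tested.

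Levels on later days show which of these changes lasted in the pregnant heifers with high progesterone. CKMT1A averaged 8.14 ± 0.57, 3.81 ± 0.87, 8.66 ± 1.52 and 9.77 ± 1.00 on days 5, 7, 13 and 16, so the low level was seen on day 7 alone. FABP3 averaged 8.56 ± 0.68, 4.66 ± 1.43, 7.52 ± 1.37 and 10.12 ± 1.74 and MSTN 7.48 ± 0.95, 3.63 ± 1.09, 6.68 ± 0.81 and 6.05 ± 0.69 on the same days, with the same low point. OXTR, in contrast, averaged 7.03 ± 0.60, 3.57 ± 0.92, 3.88 ± 1.57 and 3.73 ± 1.28, and stayed at its level of day 7. UPK1B averaged 12 ± 0.31, 9.89 ± 1.28, 2.53 ± 0.61 and 4.80 ± 1.15, so its fall on day 7 was a small step beside that seen by day 13. KRT7 averaged 6.44 ± 0.69, 3.99 ± 0.47, 4.83 ± 0.87 and 6.02 ± 0.65.

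Risers parted in the same way. CYP39A1 averaged 9.85 ± 0.59, 12.09 ± 0.45, 12.44 ± 0.70 and 12.59 ± 0.24 on days 5, 7, 13 and 16 and stayed high. ASGR2 averaged 3.78 ± 0.51, 7.29 ± 1.80, 3.55 ± 0.20 and 3.64 ± 0.03, and VNN2 4.06 ± 1.38, 7.80 ± 0.66, 4.60 ± 1.89 and 2.69 ± 0.32, both highest on day 7. HPSE at 3.36 ± 0.65, 4.95 ± 0.88, 2.45 ± 0.20 and 2.30 ± 0.10 had its peak there too. DGAT2 averaged 6.16 ± 1.07, 8.46 ± 0.72, 7.40 ± 1.19 and 4.46 ± 0.72 in pregnant heifers with high progesterone and 3.29 ± 0.56, 5.92 ± 0.68, 8.36 ± 1.24 and 5.40 ± 0.44 in those with normal progesterone. Its highest mean was on day 7 with high and on day 13 with normal progesterone. The later days were not tested here.

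**Figure D5:**
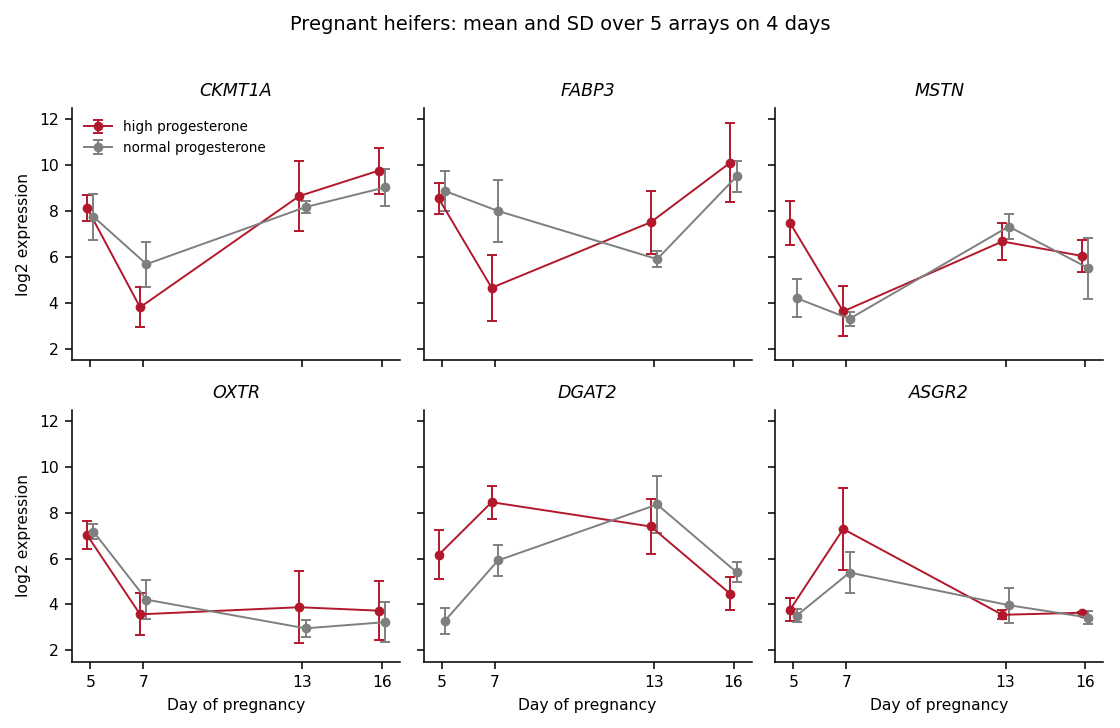
Mean log2 expression with SD over 5 arrays of 6 genes on days 5, 7, 13 and 16 in pregnant heifers with high (red) and normal progesterone (grey), both from the same log2 scale. CKMT1A, FABP3 and MSTN are lowest on day 7 with high progesterone (3.81, 4.66 and 3.63), OXTR stays low after day 7, and DGAT2 peaks on day 7 with high (8.46) and on day 13 with normal progesterone (8.36).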

How the data were processed

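Endometrium of 79 heifers in 16 groups was profiled on Affymetrix bovine arrays. The authors deposited log2 expression values per probe set. The tools listed, per the submitters' processing notes, are limma, GCRMA and RMA with no version. Which of the last pair made the values is not given in the sources used here, so how low values were treated is unknown. Arrays carry no counts, and their number limits the precision.

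Leaving out 112 control probe sets, 24016 were fitted without further filter as 16 group means over all 79 arrays with limma 3.58.1 in R 4.3.3 (63 residual degrees of freedom). P-values were adjusted by Benjamini-Hochberg over all probe sets of a comparison, with a threshold of 0.05. The platform annotation gave 1 symbol to 13292 probe sets, several to 86 and none to 10638. Each gene stands for its brightest probe set over all arrays, and 2913 of 9155 genes had several. No genome positions were used. Tables and figures were made with Python 3.11.15, pandas 2.3.3 and matplotlib 3.10.9, and the fit was tested on simulated data.

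The comparisons were day 7 minus day 5 in each of 4 groups and 2 differences between such courses. Described were 36 pathway lists and 11 marker lists, by counts and medians. Genes were named by rule: the 20 highest and 20 lowest changed genes with a proper symbol (1 gene with a LOC placeholder among the highest was passed over), up to 4 changed members of each list by size, 11 genes known from earlier work on this tissue, and the 6 highest and 6 lowest of each difference between courses. Other genes are said to be chosen after their values were seen. The groups, lists and rule were themselves chosen with earlier results of these data known, so list shares describe the data and test nothing. Each call was repeated under other normalizations, filters, models and omissions of arrays, including a replicate block. Arrays with the same replicate number on days 7 and 5 were not alike (correlation of deviations -0.015 to 0.176, mean 0.0814), so numbers were not treated as pairs.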

Additional observations from a re-analysis of the deposited data

Results flagged for a closer look

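For each named gene and each list the 5 arrays of a day were searched for 1 array far from the other 4. This picked out 27 of 368 groups of values, and chance picks out about 1 in 20. Array 4 of day 7 was the high one of its day for the mean of the mitosis genes (5.44) and the DNA replication genes (6.29), and for RRM2 (6.64), UHRF1 (5.02) and BUB1B (4.73). It was the low one for the developmental regulators (7.43), where the highest array of that day was at 7.48. Array 5 of day 7 was high for the smooth muscle genes (10.20), ACTA2 (13.88) and KRT7 (4.81), and low for ANPEP (8.09), TIPARP (7.40) and the serine and one-carbon genes (7.42). Array 3 of day 7 was low for LGALS3 (9.92) and F13A1 (5.03), array 2 was high for MX2 (7.16), and array 1 was high for the B and plasma cell genes (4.06).

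On day 5 array 2 was high for BOLA (12.52) and BOLA-N (13.14), and array 1 was high for FOXO4 (3.71) and ADSL (9.59). Array 3 was high for MX2 (2.20, still at the floor) and low for F13A1 (6.57) and MANF (10.56). FKBP5 was low on array 4 (5.85). Array 5 was high for CNGA1 (3.57) and low for the laminins and integrins (7.85) and the hypoxia genes (6.60).

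One named probe set differed between the courses of pregnant heifers with high and with normal progesterone by the test of the difference itself: that of AKR1C4, at -3.70 (limma, adjusted p = 0.0492).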

How the results depend on the processing

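Of the 1169 probe sets and 710 named genes that changed between days 7 and 5, limma called 735 and 460 when only the groups compared were fitted, 556 and 353 when days 5 and 7 alone were fitted (an alternative chosen after seeing the data), 658 and 421 with a replicate block, 2532 and 1411 with array weights, 716 and 419 without arrays 2 and 5 of day 7 (also chosen after seeing the data), and 585 to 995 and 352 to 609 when 1 array was left out. Without arrays far from their group mean 1772 probe sets were called. For the difference from the course of pregnant heifers with normal progesterone the 2 calls became 0 with only the groups compared, median centring, brighter probe sets, days 5 and 7 only, the replicate block or adjustment over named probe sets, 1 with quantile normalization, 4 without far arrays, 29 with array weights and 0 to 6 over omissions. For that from cyclic heifers with high progesterone the 0 calls became 1 with days 5 and 7 only or the replicate block, 2 with adjustment over named probe sets or without arrays 2 and 5, 3 without far arrays, 36 with array weights and 0 to 38 over omissions.

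Of 123 changed genes tabulated here 66 kept their call in every omission of 1 array. Replicate numbers did not pair the arrays, so the block is no paired test. Among genes far from the threshold the sign turned for MX2 (-0.03 without arrays 2 and 5), LTF (-0.26 to 0.33 over omissions), ANPEP (-0.19 to 0.50) and KRT18 (-0.15 to 0.09). For AKR1C4 the mean of its probe sets gave -1.03. The causes were not tested.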

Other observations

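Several genes outside the lists above also changed, and all named here were chosen after their values were seen. Omissions of 1 array are not given for them. LMNA, MIF and RRAGD passed only narrowly (limma, adjusted p = 0.0424, 0.0491 and 0.0488). Of the tubulin genes, for which no list was made, TUBA4A fell by 1.46, TUBA1A by 1.37, TUBB2B by 1.33 and TUBB by 1.27 (limma, adjusted p = 0.00494, 0.000414, 0.00467 and 0.00239), and in pregnant heifers with normal progesterone the same differences were -1.34, -1.38, -1.29 and -1.47. Only called tubulin genes are named, and how many others were measured was not counted. The nuclear lamins LMNB1 and LMNA fell by 1.42 and 1.11. EZH2, a histone methylase of dividing cells, fell by 1.23, and its relative EZH1 rose by 0.74 (limma, adjusted p = 0.0275 and 0.00326). CHEK1, the checkpoint kinase of DNA replication, fell by 1.79. PCK2, the mitochondrial carboxykinase, fell by 1.43 and PYCR1, which makes proline, by 1.16. MIF, a cytokine, fell by 1.38 in pregnant heifers with high progesterone (limma, adjusted p = 0.0491). Its difference was -0.16 in pregnant heifers with normal progesterone and -1.09 in cyclic heifers with high progesterone.

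Among genes that rose were CYBRD1, a ferric reductase (1.27), SLC38A7, a lysosomal glutamine transporter (1.23), KLHL24 (1.13), SORL1, a sorting receptor (1.11), GRB7, an adaptor of receptor kinases (1.10), CTSF, a lysosomal protease (1.02), CALCOCO2 (0.76) and GABARAPL1 (0.72), both of autophagy, RRAGD, a GTPase of amino acid sensing (0.74), and CLCN7, a lysosomal chloride carrier (0.73). In pregnant heifers with normal progesterone the differences of these 10 genes lay between 0.30 and 1.44.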
